A study of Mus musculus with 19 samples.

Results

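The 5 genes Eya4, Sema3e, Tac1, Tafa4 and Gcnt1 stood among the largest rises in mouse ovaries that lacked both Desert hedgehog (Dhh) and Indian hedgehog (Ihh). They were picked on that difference, from 316 genes called higher in the double knockout when all arrays were fitted together, out of 12379 genes tested. The ranking of those rises left out genes with Gm or Rik names. It also kept only genes that stood above the mean of the 8 controls on every double-knockout array. In that shorter list the 5 genes held places 5 to 7, 9 and 10. The gene just inside was Gcnt1, at a log2 difference of 2.07, and the gene just outside was Zg16, at 1.97. The double knockout is therefore described here without a test. The question put to the data was whether each gene was also high on the array labelled dKO 2, where the oviduct transcript Ovgp1 was low, and in either single knockout against controls of its own set. Whole ovaries came from mice 2 months old, and their RNA was read on 19 Affymetrix Mouse Genome 430 2.0 arrays. There were 8 controls heterozygous for both genes (Ihh_Dhh_dhet), 4 arrays labelled Dhh_KO, 4 labelled Ihh_KO and 3 labelled Ihh_Dhh_dKO, here called controls, Dhh KO, Ihh KO and DKO. The labels place the deletion in the ovary. The promoter that drives it, the second allele of each single knockout and whether arrays came from separate animals are not stated in the labels, so the spread between arrays may be partly technical.

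Dhh and Ihh are secreted ligands made by granulosa cells of the growing follicle. They bind the receptor Ptch1 on neighbouring mesenchymal cells, release the transducer Smo and let Gli transcription factors act, with Ptch1, Hhip and Gli1 among the genes this switches on. In the ovary the pathway is known for its part in forming the theca layer around follicles. The 5 genes belong to no single pathway. Eya4 encodes a nuclear coactivator and phosphatase that works with sine oculis homeobox proteins. Sema3e, Tac1 and Tafa4 encode secreted products: a semaphorin that signals through plexin D1, the precursor of substance P and neurokinin A, and a small chemokine-like protein. Gcnt1 encodes a Golgi enzyme that builds the core 2 branch of O-linked glycans.

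The arrays fell into 2 sets by BioC, a hybridization control spiked into each sample, read as its 3' signal over its 5' signal, which the labels do not mention. The first set held controls 1 to 4 and the DKO arrays, with ratios of 0.987 to 1.06. The second held controls 5 to 8 and every single knockout, with ratios of 0.685 to 0.781. Each knockout was read against the 4 controls of its own set. Levels were compared across sets only where all 8 controls, the fit over 19 arrays or the replicate block are named. Controls 1 to 4 matched controls 5 to 8 one to one in their deviations across genes (r = 0.538 to 0.771). The labels do not say whether the same RNA was read again, so the 8 controls may hold only 4 independent samples. Signals of Dhh lay between 606 and 1371 on controls, between 5.14 and 25.4 in Dhh KO and between 3.85 and 14.2 in DKO. Ihh KO 1 to 3 read 527 to 709 for Dhh. Dhh read 2.96 on the array labelled Ihh KO 4. Ihh read 12.5, 35.1 and 43.5 on Ihh KO 1 to 3 but 108 on Ihh KO 4, inside the range of Dhh KO (108 to 168). Controls 5 to 8 read 160 to 238 for Ihh. Both ligands thus go against the label of that array, so results for Ihh KO are given with and without that array. Ihh read 36.3 to 52.7 in DKO against 139 to 425.5 in controls of the first set. The Gapdh 3'/5' ratio, a measure of RNA integrity, was 1.68 to 1.80 over the first set. Over the second it was 1.89 to 2.01 in controls, 1.90 to 2.37 in Ihh KO and 2.08 to 2.79 in Dhh KO.

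Promoter windows of the 5 genes were read for short motifs, because the genes were high together in DKO. The RefSeq windows (GRCm38.p6) run from 250 bases before to 50 after an annotated start, and the 5 genes have 8 of the 32851 windows. The Gli consensus GACCACCCA stood on either strand in 0.253% of all windows and in 0 of the 8. Its core CCACCC, which lies inside the consensus, stood in 31.5% of all windows and in 6 of the 8. Those 6 are windows of 3 of the 5 genes, Eya4, Tafa4 and Gcnt1, so the count is of windows and not of genes. The 2 Eya4 windows overlap over most of their length and hold the same 3 matches, so they count those sites again. The windows of Sema3e and Tac1 held none. The TATA box TATAAA stood in 13.6% of all windows and in 1 of the 8, and the cAMP response half-site TGACGT in 7.51% and in 0. The windows of Eya4 (the second of its pair), Tafa4 and Gcnt1 (the third) are shown 5' to 3' on the strand of the gene, to let the spacing of the matches be compared. Capitals mark CCACCC or its reverse complement GGGTGG and, for Gcnt1, TATAAA or TTTATA. They are chr10:23349894-23350193 (minus strand) for Eya4, chr6:97060362-97060661 (minus) for Tafa4 and chr19:17372795-17373094 (minus) for Gcnt1.
Eya4: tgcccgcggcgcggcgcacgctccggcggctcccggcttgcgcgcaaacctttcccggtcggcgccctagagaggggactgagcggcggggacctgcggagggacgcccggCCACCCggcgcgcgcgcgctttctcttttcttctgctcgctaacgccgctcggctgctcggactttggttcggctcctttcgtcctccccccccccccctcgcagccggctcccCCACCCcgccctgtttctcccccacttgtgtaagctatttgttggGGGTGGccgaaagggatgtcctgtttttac
Tafa4: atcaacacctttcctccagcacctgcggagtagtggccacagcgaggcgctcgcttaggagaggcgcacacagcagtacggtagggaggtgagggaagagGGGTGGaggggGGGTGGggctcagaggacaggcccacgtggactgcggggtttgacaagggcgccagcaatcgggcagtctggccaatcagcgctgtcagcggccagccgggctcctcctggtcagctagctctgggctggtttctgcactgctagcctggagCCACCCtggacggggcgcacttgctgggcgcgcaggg
Gcnt1: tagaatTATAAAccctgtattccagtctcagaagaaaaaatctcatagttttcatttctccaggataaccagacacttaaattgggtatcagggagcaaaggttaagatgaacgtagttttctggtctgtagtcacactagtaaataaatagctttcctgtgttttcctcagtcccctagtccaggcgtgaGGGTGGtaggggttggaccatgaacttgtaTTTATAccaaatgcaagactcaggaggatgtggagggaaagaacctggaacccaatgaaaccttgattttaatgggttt
In these windows the core matches of Eya4 begin at positions -139, -25 and 21 from the start and those of Tafa4 at -150, -139 and 14. Gcnt1 has 1 core match at -59 and TATA matches at -244 and -29. G and C made up 69.3% of the Eya4 window, 66.7% of the Tafa4 window and 40.7% of the Gcnt1 window. Over all windows the median was 52.7% and the upper quartile 61.7%, so the first 2 were rich in G and C. The part of base content in the core matches was not tested. A match is a description of letters and no evidence of binding.

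All 5 genes were higher on every DKO array than on every control of the first set, which held for 7.08% of all genes tested and is what they were picked for. On the tested probe sets all 5 also stood above all 8 controls on each DKO array, as did 3.63% of genes. On the log2 scale the DKO difference was 2.70 (SE 0.51) for Eya4, 2.48 (SE 0.45) for Sema3e and 2.39 (SE 0.47) for Tac1. It was 2.12 (SE 0.52) for Gcnt1 and 1.89 (SE 0.36) for Tafa4 (4 controls and 3 DKO arrays). The standard errors overlap, so these sizes give no firm order among the 5 genes. When DKO was compared with controls of the first set alone, limma called 24 of 12379 genes higher (0.194%) and none of the 5. The fit over 19 arrays, from whose calls the 5 were picked, called 2.55% of genes higher. The fit with the set as a block, which uses the same DKO arrays, called 1.63%. These shares are background, and nothing is read from the place of the 5 genes in either.

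The 5 genes were also high on DKO 2, which lacked the Ovgp1 signal. The ranking in which they stand kept only genes above the control mean on every DKO array. That they lie above that mean on DKO 2 was therefore fixed beforehand, and the values here are a description. Ovgp1, which encodes an oviduct glycoprotein, read 3730 on DKO 1 and 4679 on DKO 3 but 53.6 on DKO 2. Controls of the first set read 409, 26.0, 40.4 and 38.2 for it, so DKO 2 lay inside their range. All 5 genes exceeded every one of these controls on DKO 2, as did 26% of genes tested. The corresponding share of genes was 19.9% on DKO 1 and 26.8% on DKO 3, where all 5 did so too. The DKO 2 signal was 4.27 times the highest control for Eya4, 4.88 times for Sema3e and 3.64 times for Tac1. For Tafa4 it was 2.51 times and for Gcnt1 1.71 times the highest control. Relative to the control mean, DKO 2 alone stood at a log2 difference of 2.95 for Eya4, 2.94 for Sema3e, 2.82 for Tac1, 2.01 for Tafa4 and 1.56 for Gcnt1. Without DKO 2 the values were 2.58, 2.25, 2.17, 1.82 and 2.40 in the same order. On the tested probe sets DKO 2 was thus the highest of the DKO arrays for Tac1 and, at 587 against 568 on DKO 3, narrowly for Sema3e. For Gcnt1 DKO 2 was level with DKO 1 (504 and 505), and DKO 3 stood higher at 1636. On the other Gcnt1 probe set, 1449538_a_at, DKO 1 was the lowest, at 219.9 against 253 on DKO 2.

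**Figure D1:**
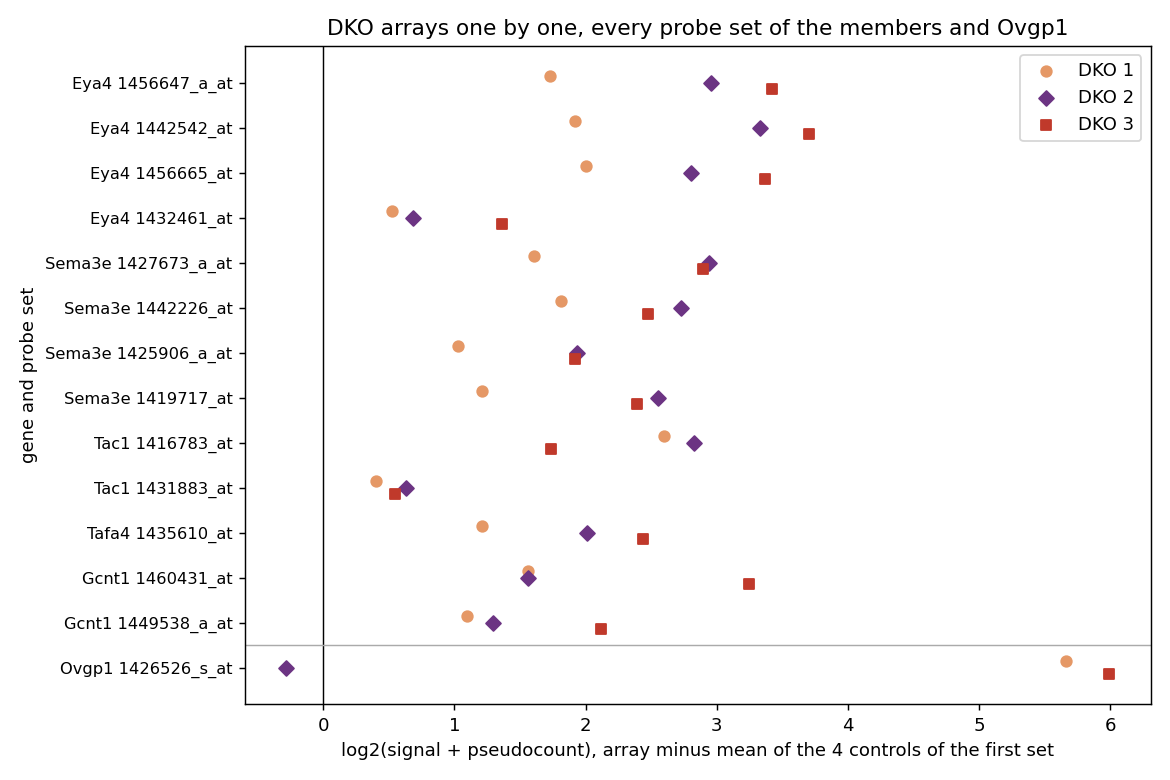
Each point is 1 DKO array for 1 probe set of the 5 genes or for Ovgp1, as log2 of signal plus the pseudocount minus the mean of the 4 controls of the first set, with the line at 0 marking that mean. DKO 2 lies at -0.28 for Ovgp1, against 5.67 and 5.99 on DKO 1 and DKO 3, and between 1.56 and 2.95 for the tested probe sets of the 5 genes.

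The 13 probe sets annotated to these genes alone showed the same direction in DKO. Of the 13, 12 stood above every control of the first set on DKO 1, 13 on DKO 2 and 13 on DKO 3. The exception on DKO 1 was the second Tac1 probe set. Against all 8 controls, Eya4 1432461_at and Tac1 1431883_at stood above on no DKO array. Gcnt1 1449538_a_at did so on DKO 3 alone, and Sema3e 1425906_a_at on DKO 2 and DKO 3. In all, 8 of the 13 passed the filter on low signal, at least 1 for each gene. The 5 probe sets used for the tests were the strongest of their genes and also passed the filter with the DKO arrays left out. So did Gcnt1 1449538_a_at. Eya4 1442542_at and Sema3e 1442226_at passed only with the DKO arrays included, so their single-knockout values are given without a test.

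Eya4 was higher in DKO and lower in Ihh KO. Its tested probe set read 50.5, 38.0, 101 and 145 on controls 1 to 4 and 261, 617 and 856 on DKO 1 to 3. The group means were 83.5 ± 49.0 (SD, n = 4) and 578 ± 299.9 (SD, n = 3), with no overlap and a wide spread within DKO. Controls 5 to 8 read 152, 105, 131 and 193, and Dhh KO 47.4, 104, 105 and 141. The arrays labelled Ihh KO 1 to 4 read 95.8, 48.0, 47.3 and 72.0. The Dhh KO range overlapped the controls, and every Ihh KO array lay below every control, as for 3.99% of genes. The means ran in the order controls (145 ± 37.3), Dhh KO (99.6 ± 38.8) and Ihh KO (65.8 ± 23.1, SD, n = 4 each), with neighbours overlapping in range. The difference was -0.57 in Dhh KO (95% interval -1.26 to 0.12, limma adjusted p = 0.61) and -1.09 in Ihh KO (-1.77 to -0.40, limma adjusted p = 0.22). Without the array labelled Ihh KO 4 it was -1.14 (limma adjusted p = 0.18). So Eya4 was not higher in either single knockout, and its lower level in Ihh KO did not pass the adjusted test.

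The other Eya4 probe sets were also higher on every DKO array than on every control of the first set. The second, 1442542_at, read 267, 722 and 936 in DKO against 46.1 to 108 in controls of the first set. It stood at -0.80 in Dhh KO and -0.92 in Ihh KO, a description only, because it passed the filter through the DKO arrays. The third, 1456665_at, read 179, 316 and 470 in DKO against 23.4 to 61.7. It averaged 73.7 ± 6.90 on controls 5 to 8 and was level between Dhh KO (47.5 ± 21.9) and Ihh KO (47.2 ± 11.7, SD, n = 4 each). The fourth, 1432461_at, read only 20.4, 23.6 and 42.0 in DKO against 8.46 to 18.9, close to the bottom of the scale. On the second set it read 14.4 to 56.4 in controls, 19.1 to 38.3 in Dhh KO and 1.03 to 19.5 in Ihh KO, and the ranges overlapped. Without the array labelled Ihh KO 4 the highest Ihh KO value was 8.72, below every control.

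On its tested probe set Sema3e stood inside the control range in both single knockouts on most arrays. It read 99.2, 48.5, 41.0 and 120.2 on controls 1 to 4 and 228, 587 and 568 on DKO 1 to 3. The means were 77.2 ± 38.6 (SD, n = 4) and 461 ± 202 (SD, n = 3), and the groups did not overlap. It read 153, 92.4, 77.2 and 94.0 on controls 5 to 8, 122, 142, 76.4 and 118 in Dhh KO, and 109.7, 139, 131 and 64.8 on Ihh KO 1 to 4. The means of 104 ± 33.3, 114 ± 27.4 and 111 ± 33.3 (SD, n = 4 each) lay closer than their spread, so the 3 groups have no order. The difference was 0.14 in Dhh KO (95% interval -0.46 to 0.74, limma adjusted p = 0.90) and 0.080 in Ihh KO (-0.52 to 0.68, limma adjusted p = 0.92). Without the array labelled Ihh KO 4 the value was 0.30 (limma adjusted p = 0.61).

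The 3 other Sema3e probe sets were also high in DKO. They read 173 to 333 (1442226_at), 74.6 to 146 (1425906_a_at) and 80.8 to 215 (1419717_at), against 21.4 to 70.8, 16.6 to 56.3 and 12.9 to 67.3 in controls of the first set. DKO 1 was the lowest of the DKO arrays on each of them. Of these, 1442226_at stood at 0.42 in Dhh KO and 0.58 in Ihh KO, a description only, because it passed the filter through the DKO arrays. On it Dhh KO 1 and 2 (89.0 and 77.2) and Ihh KO 2 to 4 (72.9, 113 and 66.2) lay above controls 5 to 8 (30.2 to 62.4). Means of controls 5 to 8, Dhh KO and Ihh KO were 57.6, 72.8 and 67.6 on 1425906_a_at. On 1419717_at they were 44.4, 46.4 and 58.7. Ranges overlapped on both, and neither passed the filter.

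Tac1 was high on 3 of the 4 Ihh KO arrays. It read 375, 162, 80.4 and 242 on controls 1 to 4 and 1164, 1364 and 639 on DKO 1 to 3. The means were 215 ± 126 (SD, n = 4) and 1056 ± 374 (SD, n = 3), and the groups did not overlap. Controls 5 to 8 read 446, 177, 131 and 205 and Dhh KO 286, 259, 91.5 and 207. The arrays Ihh KO 1 to 3 read 527, 537 and 537, above every control, and the array labelled Ihh KO 4 read 87.9, below every control. The means were 239.9 ± 141 in controls, 211 ± 86.2 in Dhh KO and 422 ± 223 in Ihh KO (SD, n = 4 each), and 534 ± 5.75 on Ihh KO 1 to 3. The difference in Dhh KO was -0.14 (95% interval -1.34 to 1.05, limma adjusted p = 0.96). In Ihh KO it was 0.65 with all 4 arrays (-0.54 to 1.85, limma adjusted p = 0.63) and 1.28 without the array labelled Ihh KO 4 (0.41 to 2.15, limma adjusted p = 0.18). Ihh KO minus Dhh KO was 0.80 (limma adjusted p = 0.62), or 1.42 without that array (limma adjusted p = 0.18). High Tac1 signal was therefore not seen on DKO arrays alone.

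The second Tac1 probe set gave another picture. That probe set, 1431883_at, read 13.9 to 17.5 in DKO against 3.61 to 14.5 in controls of the first set, close to the bottom of the scale. It read 58.4 to 165 in controls of the second set, 35.4 to 51.3 in Dhh KO and 32.5 to 57.1 in Ihh KO. It was thus lower in both single knockouts than in every control, in the opposite direction to the strong probe set on Ihh KO 1 to 3. Its mean signal did not pass the filter, so it has no test. With the log2 values of both probe sets averaged, the Tac1 difference was 1.46 in DKO and -0.24 in Ihh KO.

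Tafa4 has 1 probe set, and it showed no difference in either single knockout beyond the spread of its controls. It read 95.6, 75.0, 114 and 188 on controls 1 to 4 and 268, 472 and 635 on DKO 1 to 3. The means were 118 ± 49.4 (SD, n = 4) and 458 ± 184 (SD, n = 3), and the groups did not overlap. It read 58.8, 28.5, 133 and 187 on controls 5 to 8, 55.0, 102, 141 and 94.2 in Dhh KO, and 101, 152, 44.2 and 50.4 on Ihh KO 1 to 4. Every single-knockout array lay inside the control range. The means were 102 ± 71.8, 97.9 ± 35.2 and 87.0 ± 50.5 (SD, n = 4 each), closer than their spread. The difference was 0.17 in Dhh KO (95% interval -0.93 to 1.26, limma adjusted p = 0.94) and -0.082 in Ihh KO (-1.18 to 1.02, limma adjusted p = 0.96). Without the array labelled Ihh KO 4 it was 0.10 (limma adjusted p = 0.95). The intervals are wide, so the data do not show that Tafa4 stays level in the single knockouts.

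Gcnt1 was higher than every control in Ihh KO as well as in DKO. It read 245, 295, 116 and 89.6 on controls 1 to 4 and 505, 504 and 1636 on DKO 1 to 3. The means were 186 ± 99.5 (SD, n = 4) and 882 ± 653 (SD, n = 3), and DKO 3 stood far above the other DKO arrays. Controls 5 to 8 read 295, 308, 116 and 94.0 and Dhh KO 403, 469, 213 and 294. It read 349.7, 580.4, 514 and 357 on Ihh KO 1 to 4, each above every control, as for 2.29% of genes. The means ran in the order controls (203 ± 114), Dhh KO (345 ± 114) and Ihh KO (450.3 ± 115, SD, n = 4 each), with Dhh KO overlapping both neighbours. The difference was 0.86 in Dhh KO (95% interval 0.070 to 1.65, limma adjusted p = 0.52) and 1.27 in Ihh KO (0.48 to 2.06, limma adjusted p = 0.22). Without the array labelled Ihh KO 4 it was 1.37 (limma adjusted p = 0.16). Neither passed the adjusted test.

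The weaker Gcnt1 probe set, 1449538_a_at, did not separate the single knockouts from controls. It read 219.9, 253 and 453 in DKO against 53.3 to 164 in controls of the first set. It read 116 to 310.2 in controls of the second set, 188 to 279 in Dhh KO and 198 to 318 in Ihh KO. Tested alone it stood at 0.18 in Dhh KO and 0.27 in Ihh KO (limma adjusted p = 0.86 and 0.72).

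**Figure D2:**
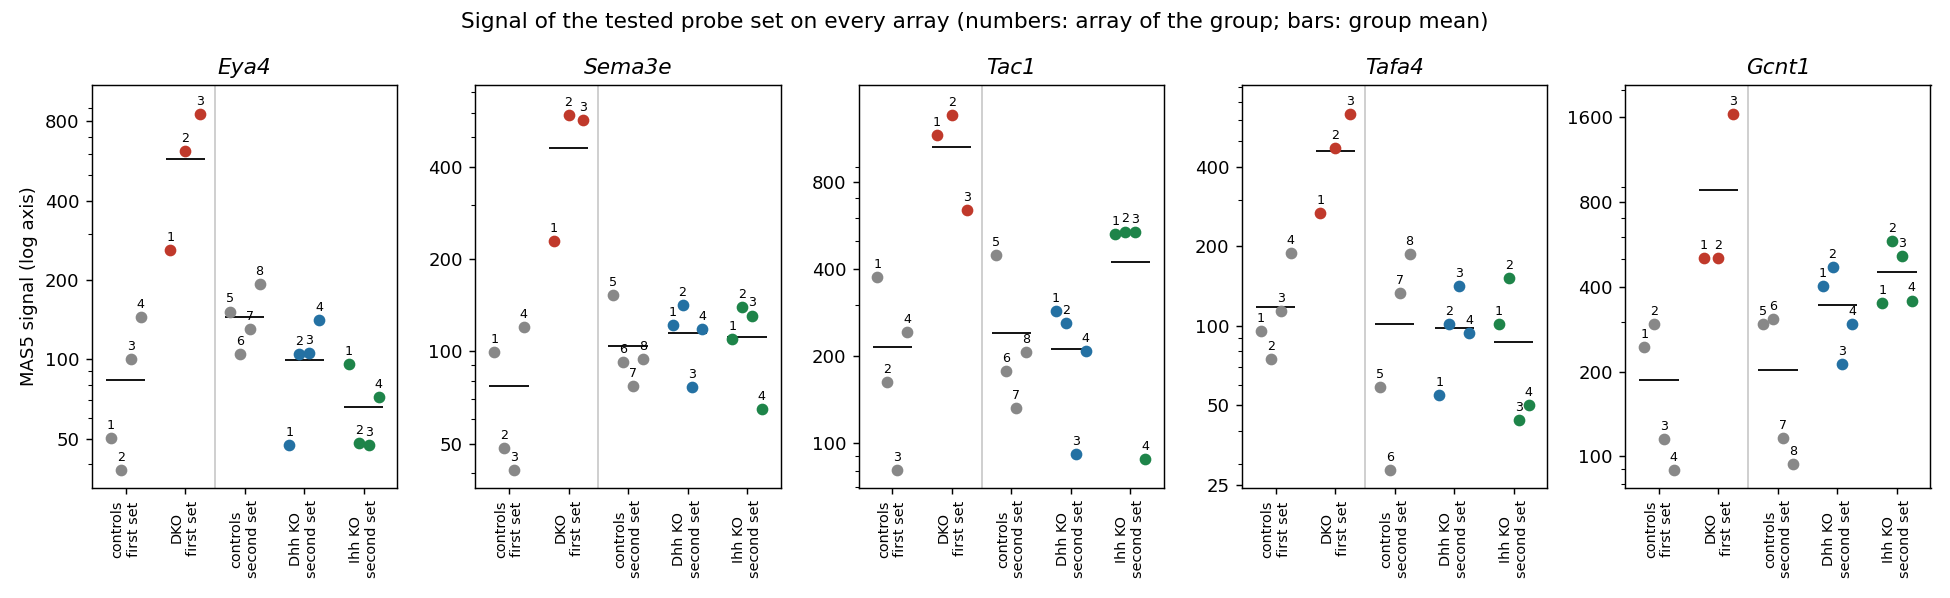
Each point is the MAS5 signal of 1 array (log axis) for the tested probe set of each gene, numbered within its group, with bars at group means and a line between the sets. DKO points stand above the controls to their left in all 5 panels, and in the second set Ihh KO lies below its controls for Eya4 and above them for Gcnt1.

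Across the 5 genes, none passed the test in a single knockout. In Dhh KO limma called 0 of 12379 genes (0%) and 0 of the 5, with 1124 genes (9.08%) and 1 of the 5 (Gcnt1) under an unadjusted p of 0.05. In Ihh KO limma called 0 genes (0%) and 0 of the 5, with 1647 genes (13.3%) and 2 of the 5 (Eya4 and Gcnt1) under that level. Leaving out the array labelled Ihh KO 4 gave 19 calls (0.153%) and still 0 of the 5, with Tac1 also among the 15.3% of genes under the unadjusted level. Ihh KO minus Dhh KO gave 0 genes (0%) and 0 of the 5, with 1321 genes (10.7%) and 0 of the 5 under the unadjusted level. In counts of arrays, 1 of the 5 (Gcnt1) was above every control in Ihh KO and 1 (Eya4) below, against 0 and 0 in Dhh KO, where 2.19% and 3.27% of genes were. On Ihh KO 1 to 3, Tac1 joined Gcnt1 above every control, as for 5.1% of genes, and Eya4 stayed below every control, as for 7.63%.

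The DKO and single-knockout differences, each against its own controls, stood in different relations for the 5 genes. For Gcnt1 the DKO difference of 2.12 lay beside a sum of the single knockouts of 2.13. That closeness did not extend to its weaker probe set, 1449538_a_at, at 1.501 in DKO against 0.18 in Dhh KO and 0.27 in Ihh KO. The DKO value of the tested probe set also moved between 1.56 (without DKO 3) and 2.40 (without DKO 2) with each array left out. For Tac1 the sum was 0.51, or 1.14 without the array labelled Ihh KO 4, against 2.39 in DKO. The sums for Sema3e and Tafa4 were 0.22 and 0.083, against 2.48 and 1.89 in DKO. For Eya4 the sum was -1.66, opposite in sign to the 2.70 in DKO. These relations are not tested, because DKO values chose the genes and the single knockouts share their controls.

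**Figure D3:**
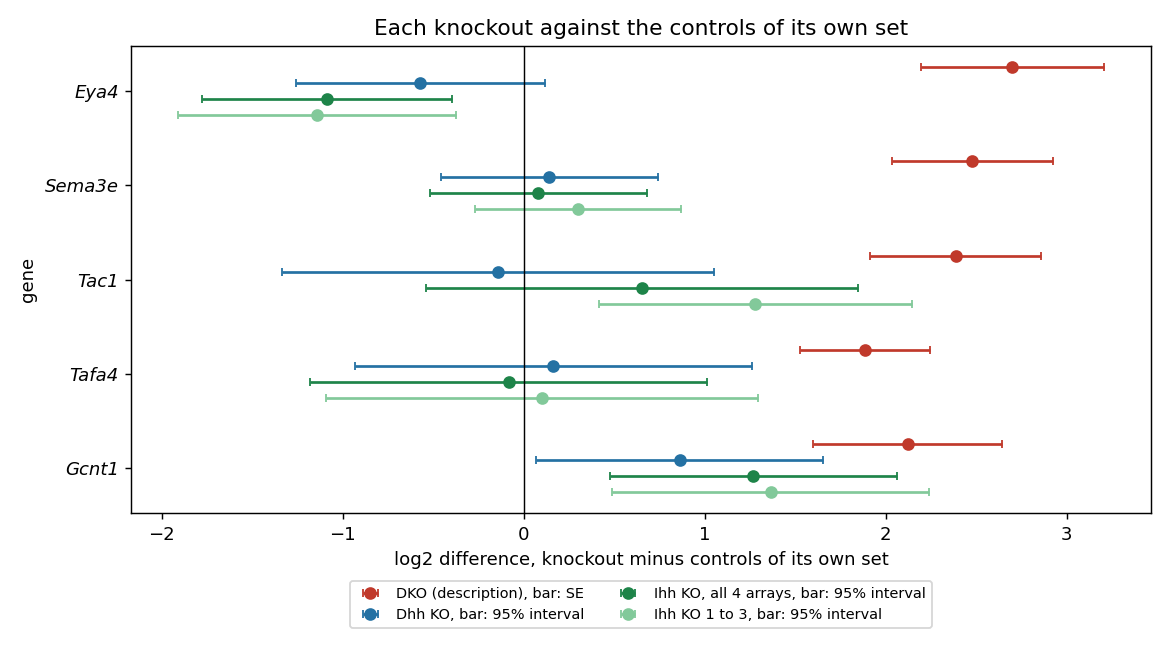
Points give the log2 difference of each knockout from controls of its own set for the 5 genes. Bars are the standard error for DKO and 95% intervals for the single knockouts. Intervals for Sema3e and Tafa4 span 0 in each single knockout, Eya4 lies at -1.09 and Gcnt1 at 1.27 in Ihh KO.

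The partners and relatives of the 5 genes were read from lists of family members, receptors and enzymes. The lists held 13, 13, 11, 4 and 16 genes for Eya4, Sema3e, Tac1, Tafa4 and Gcnt1, and the genes not counted in what follows had low signal or no probe set of their own. In DKO against controls of the first set, where 0.638% of genes were called, the calls numbered 0 of 5 tested relatives of Eya4, 0 of 12 of Sema3e, 0 of 4 of Tac1, 0 of 1 of Tafa4 and 0 of 10 of Gcnt1. The median difference was 0.20 over 5 genes around Eya4, 0.36 over 12 around Sema3e, -0.083 over 4 around Tac1 and 0.063 over 10 around Gcnt1, against 0.022 over all genes. The only tested relative of Tafa4 was Tafa5, at -0.33. In the single knockouts none was called either, with medians between -0.26 and 0.032 in Dhh KO and between -0.29 and 0.019 in Ihh KO, leaving aside Tafa5. Over all genes the medians were -0.031 and -0.021.

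The relatives of Eya4 were not picked for a rise in DKO, as Eya4 was, and none was called higher there within the first set. Six5, a homeobox factor with the highest signal of the list, had a mean of 1425 ± 213 on controls 1 to 4 (SD, n = 4) and 1632 ± 151 in DKO (SD, n = 3). Eya1, another member of the Eya family, averaged 82.4 ± 30.8 (SD, n = 4) and 36.3 ± 12.9 (SD, n = 3). Its difference was -1.01 within the first set (limma adjusted p = 0.26) and -1.48 in the fit over 19 arrays, which called it (limma adjusted p = 0.036). That fit pools both sets of controls, and Eya1 read 40.6 to 113 on controls 1 to 4 but 73.8 to 237 on controls 5 to 8. The fit with the set as a block called none of the Eya4 relatives in DKO.

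The receptors for class 3 semaphorins had no common direction in DKO, and none of the 7 tested was called within the first set. Plxnd1, the plexin that binds Sema3e directly, had a mean of 318 ± 63.2 on controls 1 to 4 (SD, n = 4) and 195 ± 37.7 in DKO (SD, n = 3). Its difference was -0.68 (limma adjusted p = 0.17), and it was named for its known role after its values were seen. The co-receptors Nrp1 and Nrp2 stood at -0.55 each within the first set (limma adjusted p = 0.17 and 0.18). The fit with the set as a block called both at that size (limma adjusted p = 0.037 and 0.024). Nrp1 averaged 1733 ± 78.9 in controls and 1208 ± 304 in DKO, and Nrp2 1513 ± 217 and 1035 ± 203 (SD, n = 4 and 3). In Ihh KO the difference of Nrp2 was -0.35 (limma adjusted p = 0.22). The class A plexins, signalling partners of the neuropilins, stood higher, at 0.29 for Plxna1, 0.63 for Plxna2, 0.54 for Plxna3 and 0.52 for Plxna4 (limma adjusted p = 0.39, 0.26, 0.21 and 0.27). Plxna3 read 117 to 152 on controls 1 to 4 and 169, 201 and 206 in DKO, with no overlap. The ligand with the highest signal, Sema3g, stood at 0.29 in DKO (limma adjusted p = 0.73).

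For the tachykinin Tac1, receptors and the other precursors lay under the filter, and 4 processing and degrading enzymes were tested. The carboxypeptidase Cpe, which trims peptide hormones, stood at -0.22 in DKO (limma adjusted p = 0.44). Pam, which amidates the ends of peptides such as substance P, averaged 2335 ± 341 in controls of the second set and 3537 ± 278 on Ihh KO 1 to 3 (SD, n = 4 and 3). Its difference there was 0.61, called only with the set as a block and without the array labelled Ihh KO 4 (limma adjusted p = 0.022). In DKO it stood at 0.058 (limma adjusted p = 0.86).

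Among the 10 O-glycan genes that passed the filter, Gcnt2, which makes branches on poly-lactosamine chains, had the highest difference in DKO. Gcnt3, a relative that did not pass, read 4.44 to 38.6 on controls 1 to 4 and 85.1, 8.10 and 639 on DKO 1 to 3, so only DKO 1 and DKO 3 stood above its controls. Gcnt2 itself read 124.6 to 155 in controls of the first set and 209, 266 and 409 in DKO, with no overlap. Its difference was 1.04 within the first set (limma adjusted p = 0.089), and the fit with the set as a block called it (limma adjusted p = 0.018). The fit over 19 arrays called none of the 10 genes in DKO. Against controls 5 to 8 Gcnt2 stood at -0.12 in Dhh KO and -0.076 in Ihh KO (limma adjusted p = 0.88 and 0.89). C1galt1, which makes the core 1 structure that Gcnt1 branches, had the highest signal of the list and stood at 0.48 in DKO (limma adjusted p = 0.18).

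Hedgehog genes set the scale of ligand loss. Of 11 tested, 3 were lower in DKO within the first set: Dhh fell by 6.20 on the log2 scale, Hhip fell by 3.02 and Ptch1 fell by 0.82 (limma adjusted p = 2.9e-04, 0.0081 and 0.0057). Without the array labelled Ihh KO 4, Hhip fell by 3.10 and Ihh fell by 2.62 in Ihh KO (limma adjusted p = 0.0039 and 0.0044), and Dhh fell by 5.37 in Dhh KO (limma adjusted p = 1.5e-06). With that array no Hedgehog gene was called in either single knockout within the second set or with the set as a block. The fit over 19 arrays, that array included, called Dhh lower in Dhh KO (limma adjusted p = 0.0090) and Ihh and Hhip lower in Ihh KO (limma adjusted p = 0.014 each).

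**Figure D4:**
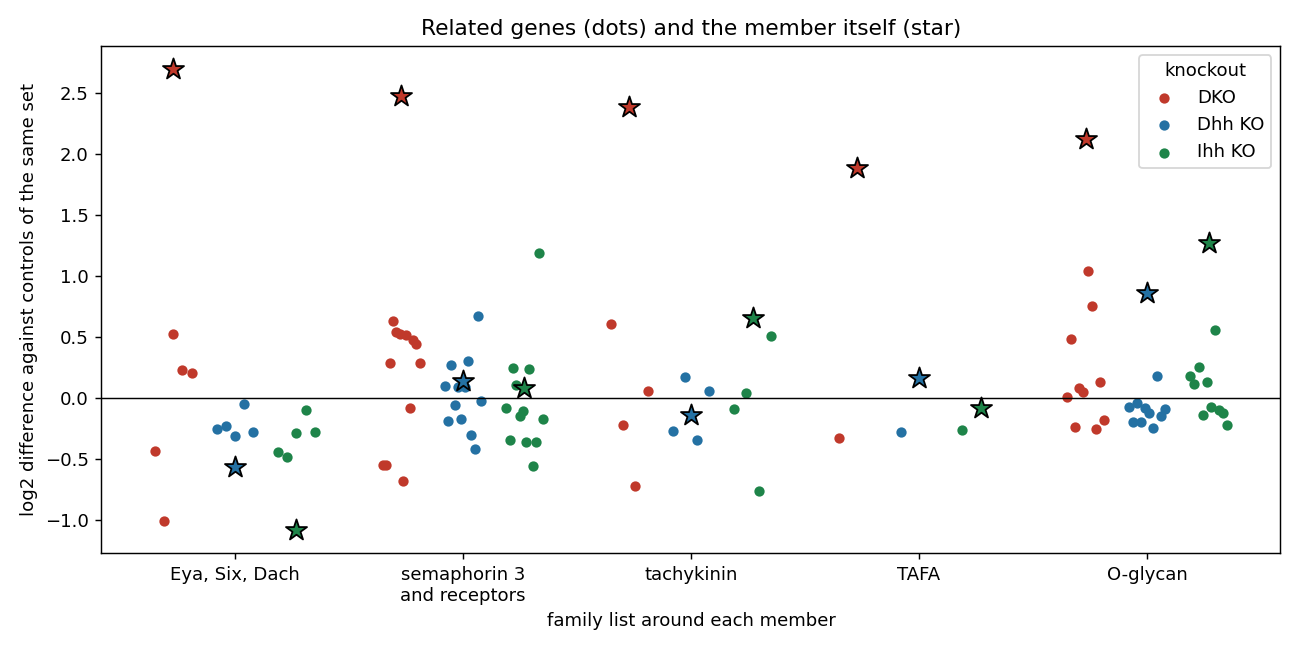
Dots are the tested relatives of each gene and stars the gene itself, as log2 differences of DKO, Dhh KO and Ihh KO from controls of their own set. The DKO stars lie between 1.89 and 2.70, and the highest relative in DKO is Gcnt2 at 1.04. The stars were picked for their DKO rise and the relatives were not, so the gap between them follows from the choice.

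Markers of other cell types also stood higher in DKO, in whole-ovary RNA where more cells of a type and more RNA per cell cannot be told apart. Oviduct markers (10 genes) summed to 2360 to 3268 on controls of the first set and to 9599, 3394 and 16358 on DKO 1 to 3. Of these 10, 10 stood above every control on DKO 1, 9 on DKO 3 and 4 on DKO 2. Mast cell markers (8 genes) summed to 345 to 808 on the same controls and to 4634, 1793 and 2597 in DKO, with 8, 6 and 5 of 8 above every control. Hdc alone read 2216 on DKO 3, so that sum rests mostly on 1 gene. Cma1, Tpsb2 and Cpa3 read 144, 107 and 59.3 on DKO 3, against 530, 379 and 258 on DKO 2. Of the list, only Hdc and Tpsab1 were higher on DKO 3 than on DKO 2. Surface epithelium markers (8 genes) summed to 5275 to 6578 and to 8869, 9932 and 12393, with 5, 7 and 5 of 8 above every control. Leukocyte markers (6 genes) summed to 428 to 801 in controls and 1004, 1362 and 677 in DKO, with 4, 4 and 1 of 6 above every control. Ptprc alone read 320 to 621 in these controls and 750, 965 and 503 in DKO, so that sum rests mostly on 1 gene. Nerve and glia markers (9 genes) summed to 527 to 1277 in controls and 689, 1268 and 841 in DKO, inside the control range. Adipocyte markers (4 genes) summed to 64.6 to 785 in controls and 2020, 86.9 and 3974 in DKO. Ovarian follicle and theca genes (8 genes) read 21455 to 31761 in controls and 19734 to 22761 in DKO. On DKO 2, then, the 5 genes were high beside sums of mast cell, surface epithelium, leukocyte and oviduct markers above every control of the first set, the oviduct sum by little, and beside an adipocyte sum inside the control range. Their part in the rises was not tested.

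Markers of the corpus luteum, the progesterone-making body left after ovulation, varied most among controls. This list of 5 measured genes (Akr1c18, Hsd17b7, Parm1, Ptgfr and Sfrp4) was added after values were seen. It summed to 13086, 26876, 12128 and 1943 on controls 1 to 4 and 10892, 14683 and 2475 on DKO 1 to 3. In the second set it summed to 10852, 22914, 10467 and 2571 on controls 5 to 8, 14557, 23198, 10156 and 16108 in Dhh KO and 27584, 33418, 31009 and 8108 on Ihh KO 1 to 4. Ranked by signal, controls 1 to 4 had the same order for Gcnt1 as for this sum, of which Sfrp4 made up 8468 on control 1. Sfrp4, Ptgfr and Hsd17b7 had that order on controls 1 to 4. Akr1c18 (886, 6722, 1559 and 44.0) and Parm1 (507, 707, 1646 and 350) did not. Controls 5 to 8 also had the same order for Gcnt1 as for the sum, which adds little, since they match controls 1 to 4. Both Tac1 and the luteal sum were high on Ihh KO 1 to 3 and lower on the array labelled Ihh KO 4, where mast cell markers summed to 540 against 949 to 2056 on the other Ihh KO arrays. Within the luteal list Parm1 went the other way, at 498, 806 and 293 on Ihh KO 1 to 3 and 926 on Ihh KO 4. Over the second set mast cell markers summed to 412 to 946 in controls, 480 to 630.2 in Dhh KO and 540 to 2056 in Ihh KO. DKO 3 had the highest Gcnt1 signal and the lowest luteal sum of the DKO arrays. The part of luteal tissue in the Gcnt1 and Tac1 values was not tested.

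The genes nearest to each of the 5 over the arrays were found by Pearson correlation of log2 values, each taken minus the control mean of its set (19 arrays, 11887 genes). The points share arrays and controls, and the DKO rise that chose the genes weighs on every value. Eya4 was nearest to the ephrin receptor Epha7 (r = 0.943), Lrig1 (0.918) and Chn1 (0.91). Sema3e was nearest to Sytl2 (0.912), BC064078 (0.91) and the alpha-catenin Ctnna2 (0.894). Tac1 was nearest to the zinc finger factor Sall1 (0.931), Ctnna2 (0.914) and Fabp7 (0.895), so Ctnna2 stood near both Sema3e and Tac1. Tafa4 was nearest to Efcab11 (0.918), Rnf182 (0.881) and Cobl (0.878). Gcnt1 was nearest to the kinase Nuak2 (0.918), Marveld2 (0.856) and Jchain (0.836).

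Without the DKO arrays the 5 genes parted into different patterns. Over the remaining 16 arrays Sema3e and Tac1 still varied together (r = 0.820, against 0.841 with DKO). Eya4 and Gcnt1 varied in opposite directions (r = -0.841, against 0.262 with DKO). Eya4 and Sema3e had r = -0.017 without DKO and 0.805 with it, and Sema3e and Tafa4 0.0992 and 0.715. Gcnt1 kept an r of 0.891 with Nuak2, and Tac1 one of 0.879 with Sall1. These correlations are descriptions over arrays that share controls.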

How the data were processed

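Per the labels' protocols, the WT-Ovation Pico kit served to amplify ovary RNA before biotin labelling. The authors deposited 1 linear intensity per probe set and array, computed with MAS5 (per the submitters' processing notes, which name no version). Its mean after trimming 2% of probe sets at each end was 500 on each array, so depth is not a concept here and the number of arrays limits the precision. Of 45101 probe sets (64 Affymetrix controls), 34945 name 1 gene, and 34741 of these matched RefSeq (GRCm38.p6) by Entrez ID, with 0 symbols changed. The pseudocount added before taking log2 was 7.02 (10th percentile over the whole table), so folds of low genes are understated. Probe sets whose mean log2 value lay below the 40th percentile (6.26) were dropped, and the single-gene probe set of highest mean stood for its gene. That left 12379 genes.

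Differences were tested with limma 3.58.1 in R 4.3.3 (lmFit, eBayes with an intensity trend, two-sided), with Benjamini-Hochberg adjustment over all genes and calls at adjusted p under 0.05. One fit held the 12 arrays of the second set (9 residual degrees of freedom), the other the 7 of the first (5). Other fits were group means over 19 arrays and, added after seeing the data, the set as a block with controls 1 to 4 correlated with 5 to 8 (0.654). Those controls matched by deviation across genes (r 0.538 to 0.771, other matches -0.635 to 0.162). Sets came from hybridization controls, groups from the labels. On simulated data the fits recovered 79% (Dhh KO), 80% (Ihh KO) and 70% (DKO) of changes of 1 log2 unit, each over 12379 genes with 100 changed at that size. The simulated noise was normal and independent between genes, and the changed genes were drawn at random. In the real second set Dhh itself, at -5.37 in Dhh KO, went uncalled. The shares thus do not tell how often a change in the 5 genes would be called. The other genes named were the members called of each family list or the one with the highest mean, and the 3 most correlated genes. Eya1, Plxnd1, Nrp1, Nrp2, Pam and Gcnt2 beyond their calls were described after their values were seen. The 5 genes, the lists and the tests were chosen with earlier results of these data known. Figures were drawn in Python 3.11.15 with matplotlib 3.10.9.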

Additional observations from a re-analysis of the deposited data

Results flagged for a closer look

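Tac1 in Ihh KO had 1 array far from the others. The array labelled Ihh KO 4 read 87.9 where Ihh KO 1 to 3 read 527, 537 and 537. It was the only such array among 20 groups of 4 arrays read for the 5 genes, where chance gives about 1 in 20. The same array read 2.96 for Dhh, against 527 to 709 on Ihh KO 1 to 3.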

How the results depend on the processing

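With 3 or 4 arrays a group, the number of genes called moved with the setting, and the direction of small differences with it. The cause was not tested. The replicate block paired arrays by their number, and controls 5 to 8 had no partner of the same number. It thus set both single knockouts against controls 1 to 4, which belong to the other set, so its calls are not own-set results. In Dhh KO, 0 genes became 19 with all 8 controls, 3689 with the replicate block, 1 with the set as a block without Ihh KO 4, and 0 to 3 with each array left out (3 without control 8, 1 without Ihh KO 4). In Ihh KO, 0 became 1 with no filter, 1 with the filter taken over the arrays of the set, 6 with every probe set tested, 3 with all 8 controls, 3345 with the replicate block, 7 with array weights, 61 with the set as a block without Ihh KO 4, and 0 to 21 with each array left out (21 without control 8, 19 without Ihh KO 4). Ihh KO minus Dhh KO went from 0 to 1 with array weights, 47 with the set as a block without Ihh KO 4, and 0 to 10 with each array left out. In DKO, 79 became 124 with median centring, 40 with a filter at the 60th percentile, 126 with every probe set, 594 with all 8 controls, 406 with the set as a block (437 without Ihh KO 4), 363 with the replicate block, 197 with array weights, and 21 (without control 3) to 191 (without control 4) with each array left out.

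Among the 5 genes, the replicate block, with controls of the other set as its reference, called 1 in Ihh KO, Gcnt1 (1.37, limma adjusted p = 0.029). No other alternative called any in a single knockout. The labels do not explain the numbers that this pairing uses, and for controls and either single knockout the deviations of same-numbered arrays did not all correlate above 0.1. DKO and Dhh KO gave 0.204, 0.133 and 0.177. Eya4 kept its sign in Ihh KO (-1.27 to -0.20) and Gcnt1 in both single knockouts (0.52 to 1.12 and 0.77 to 1.52) under every alternative run. The DKO differences stayed between 1.46 and 3.19, the lowest being Tac1 with its probe sets averaged (1.46). Signs of uncalled values turned as follows. Tafa4 in Dhh KO was -0.040 with all 8 controls, -0.24 with the replicate block and -0.28 to 0.54 with each array left out. Eya4 in Dhh KO was 0.31 with the replicate block. Tac1 in Dhh KO was 0.058 with the replicate block, 0.12 with array weights and -0.37 to 0.20 with each array left out. In Ihh KO, Tafa4 was 0.19 with quantile normalization, 0.067 with median centring, 0.33 with array weights, 0.10 with the set as a block without Ihh KO 4 and -0.53 to 0.29 with each array left out, Tac1 was -0.24 with probe sets averaged, and Sema3e was -0.039 to 0.30 with each array left out. Ihh KO minus Dhh KO for Sema3e was 0.088 with quantile normalization, 0.078 with median centring, 0.095 with probe sets averaged, 0.16 with the set as a block without Ihh KO 4 and -0.23 to 0.16 with each array left out, and for Tafa4 0.15 with array weights. Median centring moved the median of all genes in Ihh KO from -0.021 to 0.13. At the 60th percentile Eya4, Sema3e and Tafa4 dropped out, and Eya4 also with probe sets averaged.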

Other observations

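Among the relatives of Sema3e, the semaphorin gene Sema3d varied most between controls, and it was singled out after its values were seen. It read 123, 2280, 102.5 and 59.2 on controls 1 to 4 and 240.0, 2153, 181 and 85.8 on controls 5 to 8. Control 2 of the first set and control 6 of the second, which also matched in their deviations across genes (r = 0.752), were the high arrays. In the knockouts it read 551, 1939, 176 and 293 in Dhh KO, 1379, 567, 1714 and 177 in Ihh KO and 283, 741 and 109 in DKO. No group stood clear of its controls for Sema3d.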
